A study of Homo sapiens with 4 samples.

Results

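Star-PAP HITS-CLIP summits that lay off the chromosomes were examined, that is, every summit of the 3 peak lists whose sequence was not one of chromosomes 1 to 22, X, Y or M. These sequences are the unplaced ones, which no chromosome has been given for, the unlocalised ones, whose chromosome is known but not their place in it, and the haplotype sequences, which are alternative versions of regions such as the MHC. They held 1713 of 1031599 summits, of which 559 of 411400 were in control, 471 of 325797 in siStar-PAP and 683 of 294402 in siRBM10. All libraries came from HEK293 cells, a human embryonic kidney line, and RNA was crosslinked to protein by UV light at 400 mJ/cm2. An anti-Star-PAP antibody was used on control cells, on cells given siRNA against Star-PAP (siStar-PAP) and on cells given siRNA against RBM10 (siRBM10), with harvest at 48 h per the labels, and an IgG pull-down was the reference for peak calling and was not analysed on its own here. Each condition was 1 library, so no difference between conditions has a replicate check, no test between conditions was made, and the intervals given are 95% intervals that cover counting error only. The lists give a position and a score, the −log10 of the p-value of the peak caller. They give neither tags nor read totals, so the exact depth of each library is unknown. The paper states only approximate read numbers, given alike for its Star-PAP samples. The genes of the depleted proteins, TUT1 for Star-PAP and RBM10, held 5 and 7 summits in control, 8 and 17 in siStar-PAP, and 3 and 9 in siRBM10, and these numbers of binding summits are no measure of the depletion.

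Human ribosomal RNA genes lie in tandem arrays on the short arms of the acrocentric chromosomes. RNA polymerase I transcribes each as a 45S precursor, from which external and internal transcribed spacers are removed to leave the 18S, 5.8S and 28S rRNAs, and a long intergenic spacer rich in simple repeats separates one transcribed unit from the next. These arrays are not placed on the chromosomes of hg19, and the unplaced sequence Un_gl000220 carries a stretch of them. Star-PAP is a nuclear poly(A) polymerase and RBM10 an RNA-binding protein known as a splicing regulator. Other unplaced and unlocalised sequences hold satellites and copies of segments found elsewhere in the genome, so that a read from them may match several places.

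The 2 summits that lay in mature rRNA were both close to the 3′ end of 28S, and their surroundings are shown because they had the highest scores off the chromosomes in siStar-PAP and siRBM10. Each stretch has 30 bases of hg19 on the plus strand, the strand on which the rRNA is encoded, and the capital letter marks the summit.
siStar-PAP, Un_gl000220:118199-118228: ccgggaccggggtcCggtgcggagtgccct
siRBM10, Un_gl000220:118167-118196: cgcgcgcgggagggCgcgtgccccgccgcg
Both were rich in G and C, with 24 and 28 of the 30 bases. The 3 spacer summits of highest score in each library are shown next, in order of score, because they had the highest spacer scores and lay in the same part of the spacer in every library. Capitals mark the longest run of C or T, which was 8 to 19 bases long, save in the siRBM10 summit at 136492, which lay in a repeat of TG and has the summit in capitals.
control, Un_gl000220:127995-128024: ctctgtctgtctgTCTCCTTCTCTCTgtct
control, Un_gl000220:132240-132269: ctctccctacctttctgTTTCTCTCTCgct
control, Un_gl000220:136385-136414: ctctctgtctgTCTTTCTCTCTCTgtctct
siStar-PAP, Un_gl000220:136592-136621: gTCTCTCTCCCTTCCTgtctgtttctctct
siStar-PAP, Un_gl000220:132566-132595: tctgTCTCTCTCTCTCTCTCTCTgttccta
siStar-PAP, Un_gl000220:128078-128107: tgtcttctgtcttaTTCTCTTTCTCTgtct
siRBM10, Un_gl000220:136478-136507: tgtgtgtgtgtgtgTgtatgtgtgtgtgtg
siRBM10, Un_gl000220:133052-133081: tctgtgcctatcttctgtcttaCTCTCTTT
siRBM10, Un_gl000220:128919-128948: CCCTCCCTCCCTgtctgtctgtttctctct
A control summit of score 16.4 on another unplaced sequence, Un_gl000229, had letters of the same kind, and is shown with its longest run of C or T, 17 bases, in capitals.
control, Un_gl000229:8749-8778: tgtctgtctgTCTCTCTCTCTCTCCTTgtc
The lists give no strand, so the RNA strand bound is not known for any of these summits.

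Un_gl000220 held 20 summits in control, 32 in siStar-PAP and 43 in siRBM10. These were 3.58% (interval 2.33 to 5.46) of the off-chromosome summits in control, 6.79% (4.85 to 9.43) in siStar-PAP and 6.30% (4.71 to 8.37) in siRBM10. The number was 1.60-fold that of control in siStar-PAP, with an interval of 0.887 to 2.95, and 2.15-fold in siRBM10, with an interval of 1.24 to 3.86. Only the siRBM10 interval excluded equality, and this was lost among summits with p at most 0.01, of which there were 20 in control, 20 in siStar-PAP and 19 in siRBM10. All control summits of this sequence passed that threshold. The shares of off-chromosome summits were then 10.3% in control, 6.01% in siStar-PAP and 3.82% in siRBM10. Control thus turned from the lowest share to the highest.

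The sequence holds 1 ribosomal repeat with a complete transcribed unit and the start of a second. From the place of 18S at 109078 to 110946, and the spacing of RNA45SN5 in RefSeq, the 45S unit was put at 105424 to 118780, with 28S at 113348 to 118417. A stretch of 16282 bases, 101549 to 117830, recurs at 145519 to 161802 with 99.9% identity, and it holds the 5′ external transcribed spacer, 18S, 5.8S and all of 28S save its last 587 bases. The intergenic spacer between the units runs from 118781 to 149395. The authors kept uniquely mapped reads, and so the share of 30-base words that occur once in the assembly was read beside each stretch. None of the words of the transcribed unit before those last 587 bases occurred once, against 60.6% of words within them and 67.2% of words in the spacer up to the second copy.

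No summit of any library lay in 18S, in 5.8S, in the internal transcribed spacers or in the first 4483 bases of 28S. The share of Un_gl000220 summits in the transcribed unit was 0 of 20 in control, which allows a share of up to 15.0%, 1 of 32 in siStar-PAP, or 3.12% (0.554 to 15.7), and 1 of 43 in siRBM10, or 2.33% (0.412 to 12.1). The part of the missing single-copy words in this absence was not tested.

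The siStar-PAP summit of 28S lay at 118213, 204 bases before the end of 28S, and had a score of 171, the second highest of its whole list. The siRBM10 summit lay at 118181, 236 bases before that end, and had a score of 245, the highest of its list. They were 32 bases apart. Control had no summit there. Its nearest, at 119032, was 819 bases from the siStar-PAP summit, past the end of the transcribed unit by 252 bases, and had a score of 17.8. Thus the 2 depleted libraries, and not control, had a summit in mature rRNA, with 1 library of each kind. A score depends on the depth of its library and of IgG, which is not known exactly here. Scores were therefore ranked within a list. Where scores of different libraries stand side by side, no level of binding is read from them.

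**Figure D1:**
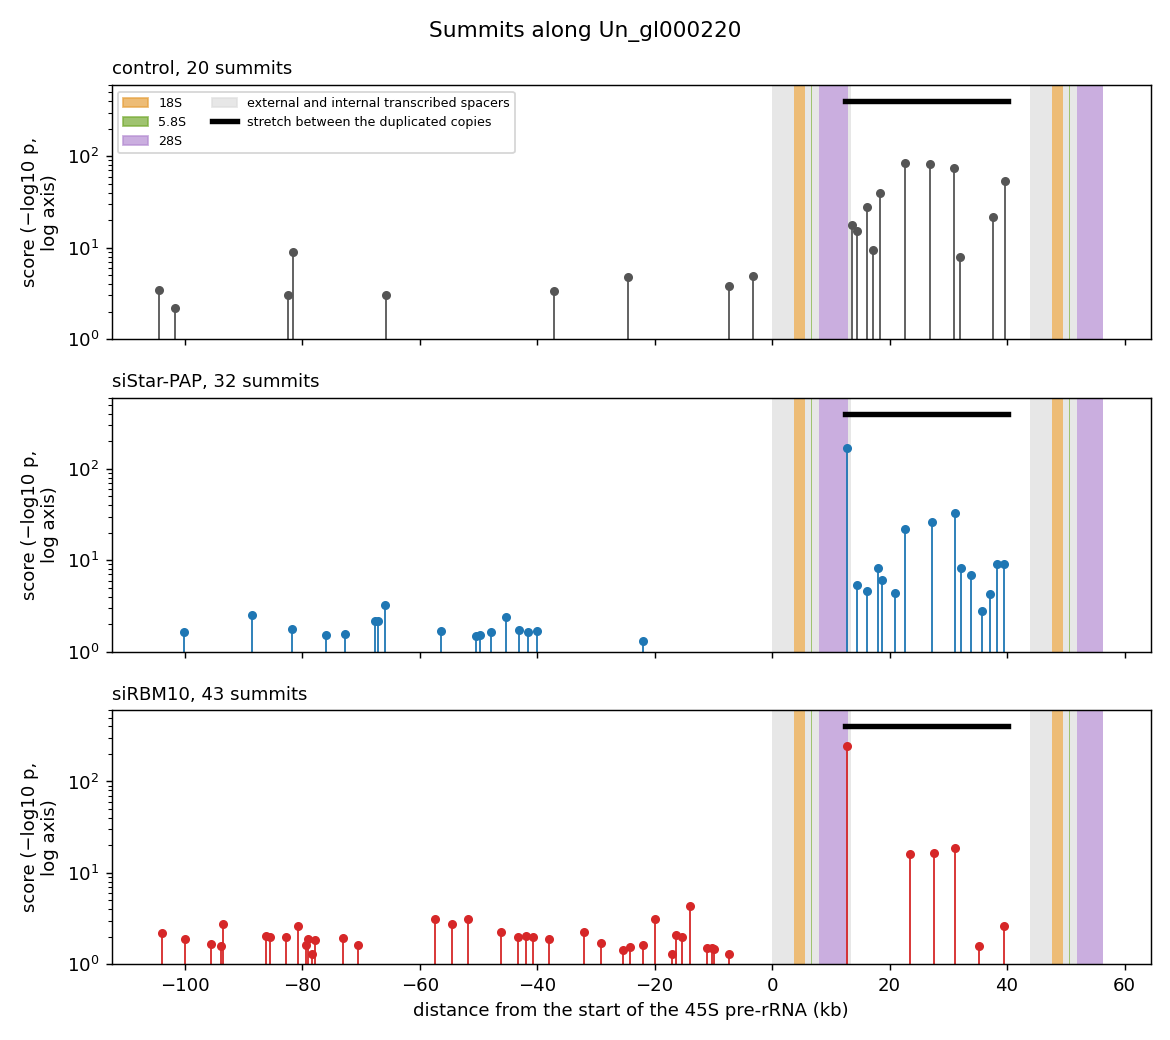
Score of each summit (−log10 p, log axis) against the distance from the start of the 45S pre-rRNA in kb, for control, siStar-PAP and siRBM10. Shading marks the rRNA parts and the black bar the stretch between the duplicated copies; only siStar-PAP and siRBM10 have a summit in 28S, with scores of 171 and 245, and the other high scores lie in the spacer under the bar.

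The intergenic spacer held 11 summits in control, 14 in siStar-PAP and 5 in siRBM10. In control it held the high scores of the sequence. The summits at 128009, 132254, 136399 and 145074 had scores of 83.6, 82.4, 74.1 and 54.3 and were ranked 2, 3, 5 and 6 in the whole list, and that at 123768 followed with 39.2. The other 6 control spacer summits had scores of 7.89 to 27.7. In siStar-PAP the highest were 32.5 at 136606, 26.5 at 132580 and 22.2 at 128092, ranked 13, 15 and 19 in the list. In siRBM10 they were 18.6 at 136492, 16.6 at 133066 and 15.9 at 128933, ranked 41, 54 and 62. The 3 highest spacer scores of each depleted library thus lay within 924 bases of those of control. The lists differ in length and in the make-up of their scores, so these ranks say only where a summit stood in its own list.

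The first 2 of these places lie in a pair of tandem copies within the spacer, 125209 to 129643 and 129645 to 134008, which are 86.7% identical. Measured from the start of its copy, the control summit lay 2800 bases in the first and 2609 in the second. The siStar-PAP summits lay 2883 and 2935 bases in, and the siRBM10 summits 3724 and 3421. The steps between the 3 places were 4245 and 4145 bases in control, 4488 and 4026 in siStar-PAP, and 4133 and 3426 in siRBM10. Since the copies resemble each other, their summits are not separate evidence for one motif.

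In windows of 101 bases on the plus strand, C and T made up 87.1 to 88.1% at these 3 control summits and 86.1 to 87.1% at those of siStar-PAP. In siRBM10 the share was 90.1% at 128933, 83.2% at 133066 and 66.3% at 136492. At 80% or more, the windows of 3 of 11 control, 3 of 14 siStar-PAP and 2 of 5 siRBM10 spacer summits were counted. Among all such windows of the stretch between the copies, 25.4% reached 80%, against 6.17% along the whole of Un_gl000220. The counts of pyrimidine-rich summits were thus near the share of such windows in the stretch. They included the 3 highest spacer scores of control and of siStar-PAP, whereas the highest of siRBM10, at 136492, and the control summit at 145074, with 41.6%, were not among them.

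Of the 11 control spacer summits, 9 had a siStar-PAP summit within 500 bp, a distance equal to the fragment size set in calling peaks, and 2 had a siRBM10 summit. At 121534 the control and siStar-PAP summits had the same position, with scores of 27.7 and 4.56. At 137474 control had 7.89, and siStar-PAP 8.33 at 48 bases from it. The 2 sites with all libraries were that near 136399, at 207 bases to the siStar-PAP and 93 to the siRBM10 summit, and that near 145074, at 152 and 222 bases, where scores were 54.3 in control, 9.04 in siStar-PAP and 2.63 in siRBM10. Spacer summits with no summit of another library within 500 bp had scores of 17.8 at 119032 and 9.48 at 122677 in control, of 4.42 to 9.01 in siStar-PAP, and of 15.9 in siRBM10 at 128933.

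Before the ribosomal repeat, over the first 101548 bases of Un_gl000220, control had 8 summits, siStar-PAP 17 and siRBM10 37. The scores were low, with medians of 3.40, 1.67 and 1.95 and maxima of 9.0, 3.21 and 4.29. Both depleted libraries thus had more summits than control in this stretch, of which 85.3% of words occurred once in the assembly. All control summits there had p at most 0.01. In siStar-PAP only those with scores of 2.49, 2.14, 2.18, 3.21 and 2.41 did, which were fewer than in control. In siRBM10 those with p at most 0.01 were still more than in control. One further control summit, at 102176 with a score of 4.91, lay in the duplicated stretch upstream of the 45S unit, and the second copy held none.

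Scores of 10 or more were borne by 15 off-chromosome summits in control, 4 in siStar-PAP and 4 in siRBM10, or 2.68, 0.849 and 0.586% of them. Over the whole lists the shares were 0.103, 0.0436 and 0.0493%. Un_gl000220 held 9 of the 15 in control and all of them in the depleted libraries. Beyond it, the summits of highest score were at 2785136 of the MHC haplotype 6_ssto_hap7 in control (24.3), with a siStar-PAP summit of 6.60 at 2785262 and a siRBM10 summit of 3.25 at 2785310, at 86492 of 7_gl000195_random in siStar-PAP (7.72) and at 163567 of Un_gl000216 in siRBM10 (9.34). The places on 7_gl000195_random and Un_gl000216 carry no gene annotation here. For the haplotype no annotation was looked up.

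Off-chromosome summits made up 0.136% (0.125 to 0.148) of the list in control, 0.145% (0.132 to 0.158) in siStar-PAP and 0.232% (0.215 to 0.250) in siRBM10. Against control, their number was lower by 15.7% in siStar-PAP (a change of −15.7%, interval −25.6 to −4.58) and changed by 22.2% in siRBM10 (9.10 to 36.9). On chromosomes 1 to 22, X and Y the changes were −20.8 and −28.5%. The siRBM10 library thus had more summits off the chromosomes and fewer on them than control. Without Un_gl000220 the change in siRBM10 was 18.7% (5.72 to 33.4).

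These changes depended on the lowest scores. In control 63.2% of the list had 1 and the same score of 1.33, whereas the commonest score was 2.92 in siStar-PAP and 3.25 in siRBM10. Off the chromosomes 194 control summits, 333 siStar-PAP and 497 siRBM10 summits had p at most 0.01, which were 34.7, 70.7 and 72.8% of them, against 33.6, 84.6 and 90.5% of the whole lists. Counted so, the number was 71.6% higher than in control in siStar-PAP (43.4 to 106) and 156% higher in siRBM10 (117 to 204), beside 99.7 and 92.8% on the chromosomes. The direction in siStar-PAP turned. In siRBM10 the change exceeded that of the chromosomes either way.

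The classes of sequence differed from each other. Unplaced sequences held 278 summits in control, 246 in siStar-PAP and 428 in siRBM10, and unlocalised ones 164, 186 and 227. With p at most 0.01 the numbers were 111, 176 and 303 on unplaced and 69, 118 and 166 on unlocalised sequences, so that on unplaced ones siStar-PAP turned from fewer to more than control. Haplotype sequences held 117, 39 and 28, with changes of −66.7% in siStar-PAP (−77.4 to −51.7) and −76.1% in siRBM10 (−84.8 to −63.6), and each of the 9 haplotypes with any summit had fewer in both depleted libraries than in control. Of the control summits of haplotypes, however, 102, or 87.2%, had the score of 1.33. With p at most 0.01 there were 14 in control, 39 in siStar-PAP and 28 in siRBM10, so that the order of the libraries turned. The changes were then 179% (48.0 to 455) in siStar-PAP and 100% (1.82 to 311) in siRBM10. Such a turn was not particular to haplotypes. On the chromosomes the changes went from −20.8 and −28.5% to 99.7 and 92.8%.

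**Figure D2:**
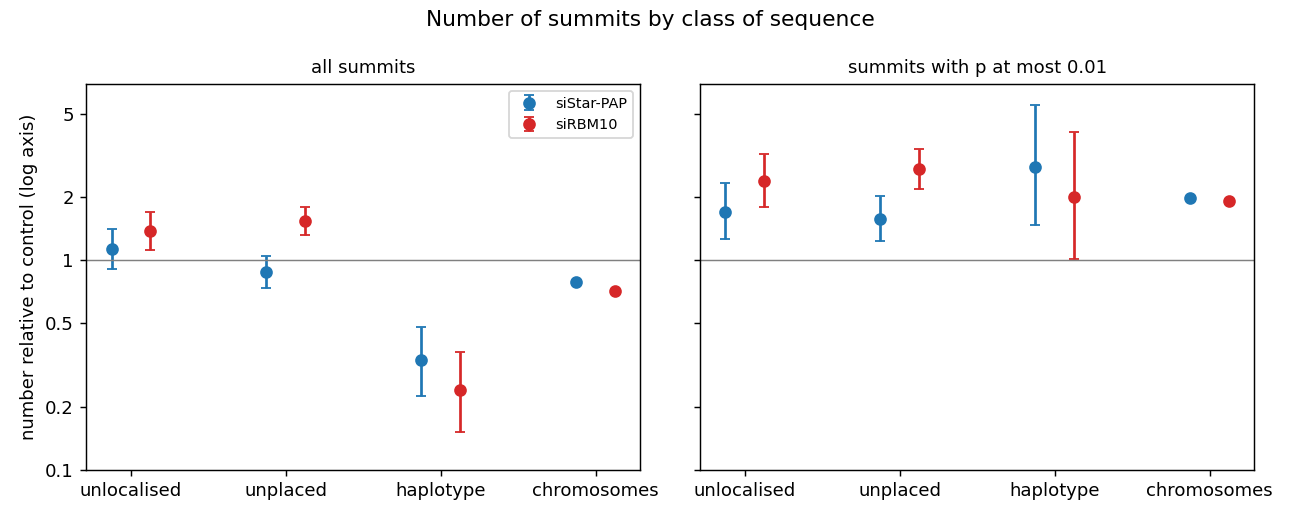
Number of summits relative to control (log axis) by class of sequence for siStar-PAP and siRBM10, with 95% intervals of counting error, for all summits (left) and summits with p at most 0.01 (right). Haplotypes lie far below 1 on the left, at changes of −66.7 and −76.1%, and above 1 on the right. The chromosomes also lie below 1 on the left and above 1 on the right.

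The haplotypes stand for regions that are also on the chromosomes. The haplotypes of chromosome 6 carry versions of the MHC, with the HLA genes that present antigens, and held 84 summits in control, 28 in siStar-PAP and 23 in siRBM10. The span of the HLA genes on chromosome 6 itself, 29690552 to 33111102 of hg19, held 66, 62 and 48, changes of −6.06% (−34.7 to 34.9) and −27.3% (−50.9 to 7.09). The chromosome 17 haplotype 17_ctg5_hap1 carries MAPT, which encodes tau, with KANSL1 and NSF, and held 31, 10 and 5. On chromosome 17 the span of these genes, 43971893 to 44835045, held 94, 56 and 50. The chromosome 4 haplotype held 2, 1 and 0 summits, and the span of the UGT2B genes, which encode glucuronosyltransferases, 117, 25 and 17. These counts take in summits of every score, and the spans were not counted at p at most 0.01. The haplotype counts of chromosome 6 pool several versions of the region, beside 1 span on the chromosome. Whether a haplotype summit belongs to the haplotype or to its counterpart cannot be told apart from these lists.

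Of the unlocalised sequences of chromosome 19, 19_gl000209_random matches transcripts of KIR genes, the receptors of natural killer cells, and held 17 summits in control and 14 in each depleted library. Exon matches held 3 of them in control, 3 in siStar-PAP and 1 in siRBM10, with KIR3DL1 and KIR3DL2 in control at scores of at most 2.28, KIR3DL1, KIR2DL1 and KIR3DL2 in siStar-PAP, and KIR2DS4 in siRBM10. KIR genes are near-identical copies of one another, so these assignments are uncertain. The KIR span on chromosome 19 held 30, 39 and 40 summits.

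Summits were found on 62 of these sequences, 45 of them with summits in all libraries. The reference holds 59 unplaced and unlocalised sequences, of which 6 had no summit. No sequence held 5 or more summits in 1 library only. More summits than in control were found on 19 sequences and fewer on 41 in siStar-PAP, and more on 24 and fewer on 35 in siRBM10. Thus the higher total of siRBM10 came from a minority of the sequences.

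The sequence with most summits differed between libraries. In siRBM10 it was Un_gl000225 with 73 summits, where siStar-PAP had 24 and control 6, so that the number was 12.2-fold that of control in siRBM10 (5.33 to 34.2) and 4.0-fold in siStar-PAP (1.59 to 12). With p at most 0.01 it held 42, 12 and 1. The word TGCACTGATC and its reverse complement GATCAGTGCA, its commonest 10 bases, occurred 823 times in it, 269 times in Un_gl000216 and 55 times in Un_gl000228, and in no other of the 59 sequences 10 times or more. The siRBM10 summits of highest score in these first 2 sequences are shown, with the summit in capitals.
siRBM10, Un_gl000225:131736-131765: gatgtaactcttgtCtaccctctgcccaag
siRBM10, Un_gl000216:163553-163582: tttagtctaggctcTggctacacggcattg
Their scores were 5.91 and 9.34. Neither 30-base stretch held the word itself.

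Un_gl000216 held 56 summits in siRBM10, 19 in siStar-PAP and 20 in control, 2.80-fold (1.65 to 4.93) and 0.95-fold (0.480 to 1.88) of control. It is rich in GGAAT, the unit of a human satellite, with 20.3% of its bases in GGAAT or its reverse complement ATTCC. About equal parts of the sequence lay in stretches with over 10% of bases in this pentamer within 1000 bp (48.5%) and outside them. Within those stretches lay 13 of 20 control, 12 of 19 siStar-PAP and 36 of 56 siRBM10 summits. A word occurred once in the assembly at 66.3% of positions in these stretches and at 26.6% outside. The share of summits in them was thus alike in all libraries, although siRBM10 had more of them, and the part of single-copy words in it was not tested. The summits of highest score with a pentamer in the shown stretch were the following, with pentamers in capitals and scores of 12.9, 4.98 and 7.79.
control, Un_gl000216:75635-75664: tgATTCCATTCCATTCCATTCCtttccatt
siStar-PAP, Un_gl000216:15143-15172: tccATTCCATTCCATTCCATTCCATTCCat
siRBM10, Un_gl000216:80578-80607: tcccaacccattgcattcgagttcATTCCa
Over all unplaced and unlocalised sequences, GGAAT or ATTCC was in the window of 101 bases around 21.3% of control (17.7 to 25.3), 27.1% of siStar-PAP (23.1 to 31.5) and 33.3% of siRBM10 summits (29.8 to 37.0), beside 22.6% of all such windows. Summit windows and all windows are unlike in uniqueness. A single-copy word was in 60.9% of control, 77.3% of siStar-PAP and 84.1% of siRBM10 summit windows, and in 43.6% of all windows. Among summits with p at most 0.01 the shares were 78.3, 73.1 and 82.3%, so that control was above siStar-PAP. The part of uniqueness in the pentamer shares was not tested.

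The other sequences with many siRBM10 summits were Un_gl000224, with 22 summits in control, 29 in siStar-PAP and 49 in siRBM10, 7_gl000195_random, with 17, 41 and 47, and 17_gl000205_random, with 10, 23 and 45. In control the sequences with most summits were 1_gl000192_random (50, 23 and 26 in the same order), Un_gl000219 (33, 27 and 42), 17_ctg5_hap1 and 6_mcf_hap5 (27, 7 and 6), and Un_gl000211 (24, 8 and 15). In 1_gl000192_random 35 of the 50 control summits had the score of 1.33. With p at most 0.01, control had 15 there, siStar-PAP 23 and siRBM10 26. On 7_gl000195_random, by contrast, 2 of 17 control summits had that score, and 14, 21 and 28 summits were left.

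**Figure D3:**
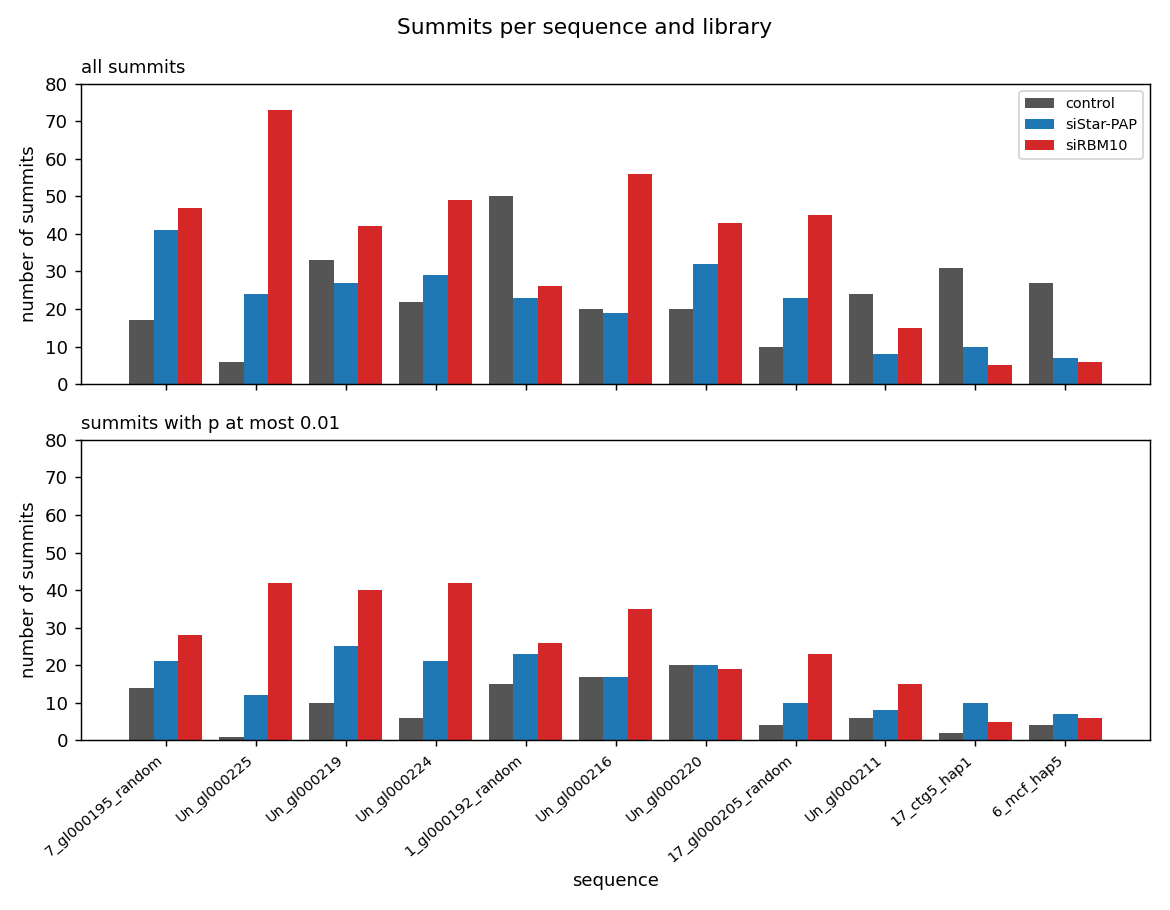
Number of summits in control, siStar-PAP and siRBM10 on Un_gl000220 and the sequences with most summits in a library, for all summits (top) and summits with p at most 0.01 (bottom). In siRBM10 Un_gl000225 holds 73 and 42, the latter equal to Un_gl000224; the control excess on 1_gl000192_random and on the haplotypes is seen in the top panel only.

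Per base of sequence, summits were denser where more of a sequence occurred once. The unplaced and unlocalised sequences held 7.23, 7.07 and 10.7 summits per 100 kb in control, siStar-PAP and siRBM10, beside 14.4, 11.4 and 10.3 per 100 kb on the chromosomes. On 27 sequences with under 10% of words in 1 copy the densities were 3.71, 1.31 and 1.22. On 16 sequences with 40% or more they were 9.81, 15.3 and 25.5. In siStar-PAP and siRBM10 the density of the latter exceeded that of the chromosomes, while in control it was below it. With p at most 0.01 the densities at 40% or more were 5.63, 9.45 and 16.3, beside 4.82, 9.63 and 9.30 on the chromosomes. The siRBM10 density was then still above that of the chromosomes, siStar-PAP no longer above and control no longer below. Per 100 kb of single-copy words, sequences under 10% held 116, 40.9 and 38.1 summits, those of 10 to 40% held 42.8, 32.6 and 44.7, and those of 40% or more held 18.5, 28.7 and 48.0. On that scale the order was thus turned in control and siStar-PAP.
Across the 59 sequences, the rank correlation of the number of summits with the length in single-copy words was 0.792 in control, 0.895 in siStar-PAP and 0.929 in siRBM10, and with the whole length 0.646, 0.591 and 0.552. These are descriptions across sequences of 1 library each, which share its depth and mapping, and longer sequences have more of both. Among control summits on these sequences, the window of 101 bases held a single-copy word at 49.2% (43.0 to 55.4) of those with the score of 1.33 and at 75.3% (68.8 to 80.7) of the others.

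**Figure D4:**
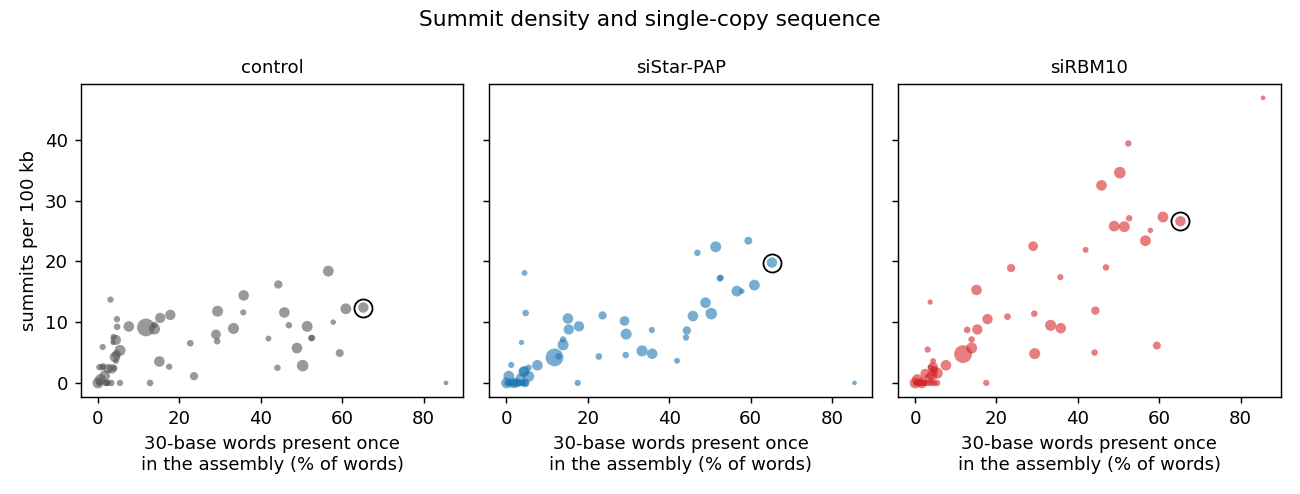
Summits per 100 kb against the percent of 30-base words present once in the assembly, for the 59 unplaced and unlocalised sequences in control, siStar-PAP and siRBM10; point area goes with length, and the ring marks Un_gl000220. Density is higher at a higher share, from 1.22 under 10% to 25.5 at 40% or more in siRBM10, and least so in control.

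Between libraries, few off-chromosome summits lay near each other. A siStar-PAP summit was within 500 bp of 72 of 559 control summits, or 12.9% (10.4 to 15.9), beside 10.9% over the whole control list. A siRBM10 summit was near 56, or 10.0% (7.80 to 12.8), beside 8.90%. Of the siRBM10 summits, 106 of 683, or 15.5% (13.0 to 18.4), had a siStar-PAP summit near, beside 18.2%. All these shares were close to those of the whole lists, each of which lay in the interval.

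On Un_gl000220 the shares with control were higher. There 11 of 20 control summits, or 55.0% (34.2 to 74.2), had a siStar-PAP summit within 500 bp, and 5, or 25% (11.2 to 46.9), a siRBM10 summit, and both intervals lie above the share of the whole list. Of its siRBM10 summits, 10 of 43, or 23.3% (13.2 to 37.7), had a siStar-PAP summit near, and this interval holds the share of the whole list. A share within a fixed distance rises with the density of the other library, and no adjustment was made for it. Un_gl000220 held 19.8 siStar-PAP and 26.6 siRBM10 summits per 100 kb, beside 11.4 and 10.3 on the chromosomes. Un_gl000216 and Un_gl000225 held 11.0 and 11.4 in siStar-PAP, and 32.5 and 34.6 in siRBM10. The part of density in the shares was not tested. All control summits of Un_gl000220 had p at most 0.01, against 33.6% of the whole control list. At that threshold, the shares of all off-chromosome control summits were 22.7% with siStar-PAP and 14.4% with siRBM10. The siRBM10 value lies in the interval of Un_gl000220, and the siStar-PAP value below its interval. The part of score in the shares was not tested either. Higher shares were not particular to Un_gl000220. On the satellite-rich Un_gl000216 and Un_gl000225 together, a pair chosen after the values were seen, 6 of 26 control summits, or 23.1% (11.0 to 42.1), had a siStar-PAP summit near and 8, or 30.8% (16.5 to 50.0), a siRBM10 summit. The median distance from a control summit to the nearest siStar-PAP summit was 0.363 kb on Un_gl000220 and 5.92 kb on all other sequences. On the pair Un_gl000216 and Un_gl000225 it was 2.95 kb. Haplotypes lay at the low end, with 3 of 117 control summits near a siStar-PAP summit, or 2.56% (0.876 to 7.27), and 6, or 5.13% (2.37 to 10.7), near a siRBM10 summit.

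The same position was shared by 7 control and siStar-PAP summits, by 1 control and siRBM10 summit, and by 1 siRBM10 and siStar-PAP summit. A summit of both depleted libraries was within 500 bp of 11 control summits, 1.97% of them (1.10 to 3.49), on 10 sequences, beside 1.59% over the whole control list. After the 2 of Un_gl000220 and that of 6_ssto_hap7, the next by control score was at 1435 of Un_gl000216, with 10.6 in control, 3.01 in siStar-PAP at 268 bases and 1.99 in siRBM10 at 274 bases. At 78153 of Un_gl000224 the 3 summits lay within 53 bases of the control position, with scores of 1.33, 2.64 and 3.25. At 101282 of Un_gl000218 the scores were 1.33, 2.92 and 4.48, the first 2 being the commonest scores of their lists. The sites common to all libraries with a control score of 10 or more were thus the 2 in the ribosomal spacer, 1 on an MHC haplotype and 1 on Un_gl000216.

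**Figure D5:**
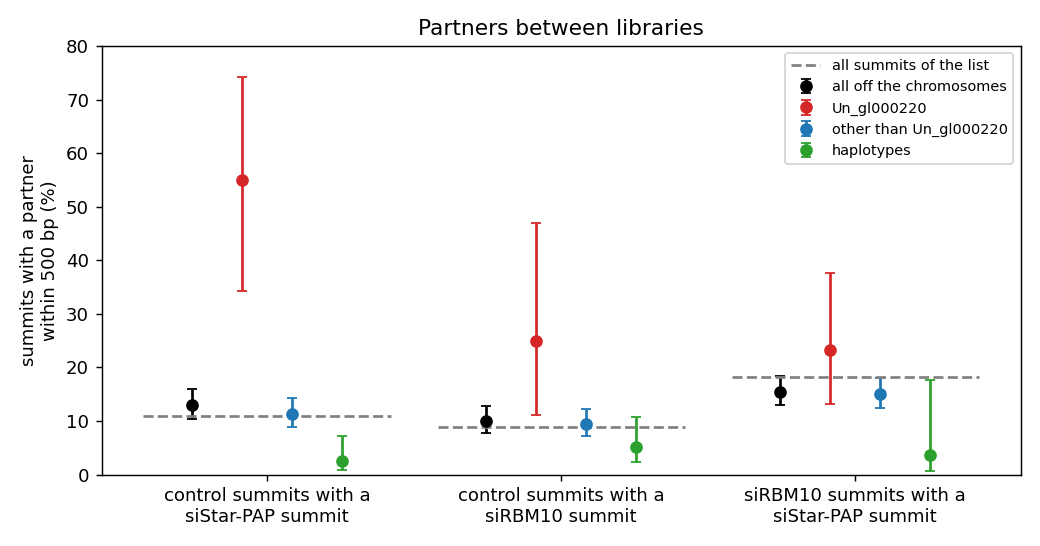
Percent of summits with a summit of another library within 500 bp, with 95% Wilson intervals, for all off-chromosome summits, Un_gl000220, the rest and the haplotypes; dashes give the share of the whole list. Control summits of Un_gl000220 reach 55.0% with siStar-PAP, whereas all off-chromosome summits lie near the dashes, at 12.9, 10.0 and 15.5%.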

How the data were processed

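HITS-CLIP libraries of HEK293 cells were analysed from the 3 lists of MACS2 summits deposited by the authors, whose scores are the −log10 of the p-value; the largest p was 0.05. Per the paper's methods, reads were filtered, trimmed and collapsed, mapped to hg19 with BWA, restricted to unique matches, and peaks called in each library against IgG. The submitters' processing notes name FastQC 0.72, cutadapt 1.14, BWA 0.7.12 and MACS2. The paper's methods state calcium phosphate transfection, whereas the labels state Oligofectamine. Tags, strands and totals are not given in the lists, so the exact depth of each library is unknown.

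Members, sequences and lists were chosen with earlier results of these data known. Named were Un_gl000220, the 5 sequences with most summits per library, the 5 summits of highest score per library and summits in mature rRNA; Un_gl000218, Un_gl000228 and other sites of lower score were named after their values were seen. Groups were taken from the sample labels.

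Sequence was read from the hg19 primary assembly, which holds the unplaced and unlocalised sequences; haplotype sequences were not used here. GENCODE release 44 mapped to hg19 has 0 genes on those sequences. Placement of 18S came from a match of an 18S pseudogene transcript (89.1% identity, 1869 bases), and the other rRNA parts were placed from it by the spacing of RNA45SN5 in RefSeq; a 5.8S pseudogene matched within 1 base of the place so given. Words of 30 bases on both strands were counted over the assembly. KIR exons are transcript matches of at least 97% identity. Shares have Wilson intervals and ratios of counts exact conditional Poisson intervals, both at 95%; a count of 0 allows 3 counts. Distances used 500 bp. Alternatives were p at most 0.01, merged summits, the 294402 summits of highest score per list, leaving out Un_gl000220 or the haplotypes, and other distances. Steps were tested on simulated data. Python 3.11.15, numpy 2.4.6, pandas 2.3.3, scipy 1.17.1, pysam 0.24.0 and BLAST 2.17.0+ were used.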

Additional observations from a re-analysis of the deposited data

How the results depend on the processing

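With p at most 0.01 the change of the number against control was 71.6% in siStar-PAP, a turned direction from −15.7%, and 156% in siRBM10. The control number was then 194, the share off the chromosomes 0.121% in siStar-PAP and 0.187% in siRBM10, the share on Un_gl000220 10.3% in control and 3.82% in siRBM10, and the share with a partner 22.7% for control with siStar-PAP, 14.4% for control with siRBM10 and 10.9% for siRBM10 with siStar-PAP. The removed summits are by construction those of low score, above all the control ones of score 1.33. With the same number of top summits the siStar-PAP share was 0.127%, and the changes were −2.86% in siStar-PAP and 77.4% in siRBM10. Without haplotypes the control share was 0.107%, and the changes, an alternative chosen after seeing the data, were −2.26 and 48.2%.

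At the same position, within 100 bp and within 1000 bp, the partner shares were 1.25, 4.47 and 18.4% for control with siStar-PAP, 0.179, 2.15 and 18.2% for control with siRBM10, and 0.146, 5.27 and 25.3% for siRBM10 with siStar-PAP, as the wider distance must give. Merging summits within 500 bp, leaving out Un_gl000220, and the other borders of the transcribed unit moved no share past its interval and no count past 1.5 times. Counting classes and sequences at p at most 0.01 was also chosen after seeing the data. The chromosomes turned likewise, from −20.8% in siStar-PAP and −28.5% in siRBM10 to 99.7 and 92.8%. Some turned counts were small, such as 5 siRBM10 against 2 control summits on 17_ctg5_hap1 (−59.1 to 2530%). The intervals of 1_gl000192_random, 6_mcf_hap5 and Un_gl000211 included no change in either depleted library. Relative to control, directions turned for haplotypes (179% in siStar-PAP, 100% in siRBM10), 17_ctg5_hap1 (400 and 150%), 1_gl000192_random (53.3 and 73.3%), 6_mcf_hap5 (75.0 and 50.0%), Un_gl000211 (33.3 and 150%), and for Un_gl000220 in siRBM10 (−5.00%), Un_gl000219 in siStar-PAP (150%) and unplaced sequences in siStar-PAP (58.6%). With 1 library per condition, no paired analysis was possible. That the exact depth is unknown limits every comparison of scores between libraries.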
